A study of Homo sapiens with 6 samples.

Results

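Ribosomes are assembled in the nucleolus, where RNA polymerase I copies the ribosomal RNA genes and a long series of factors folds, modifies, cuts and packs the transcript into the small and large ribosomal subunits. Small nucleolar ribonucleoproteins (snoRNPs) guide the chemical modification of that RNA, box C/D particles for methylation and box H/ACA particles for pseudouridylation. Growing tumour cells, melanoma cells among them, usually run this pathway at a high rate, and the transcription factor MYC is well known to drive many of its genes. The genes described here are 45 nucleolar, ribosomal RNA processing and polymerase I genes chosen by name, of which 44 were present among the 12010 genes measured. BOP1, a partner of PES1 and WDR12 in large subunit assembly, was not analysed here.

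The measurements are RNA sequencing values of 92.1, an established human uveal melanoma cell line (melanoma that arises from pigment cells inside the eye). All 6 samples came from this 1 line, and treatment is the only difference between the groups that the labels give. The LBH589 group (3 samples) was exposed to LBH589 at 0.1 µM and the DMSO group (3 samples) to its solvent, both for 24 h. LBH589 (panobinostat) inhibits histone deacetylases, which take acetyl groups off histones and other proteins. The question was which RNAs of these cells differ after the drug. Levels are FPKM, fragment counts scaled to transcript length and to the mapped fragments of the library, added up per gene over its transcripts. Changes are log2 fold changes of FPKM + 1, LBH589 minus DMSO, tested with limma over the 11520 genes whose mean reached 0.5 FPKM and called at a Benjamini-Hochberg adjusted p below 0.05. "Rose" and "fell" are used for called genes only. Nothing in the labels says that the samples came from separate cultures, so the p-values reflect only how far these samples scatter, and that scatter may be technical.

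Library sums lay between 397174 and 422630 FPKM in DMSO and between 355148 and 367222 FPKM in LBH589, and absolute depth is unknown because the files hold no counts. Mitochondrially encoded genes took 35.8 to 45.7% of FPKM in DMSO and 35.1 to 37.3% in LBH589. All 8 melanocyte markers checked were measured, with a summed level of 2531 to 2672 FPKM in DMSO and 721 to 776 FPKM in LBH589. Most of each sum was TYRP1, at 1769 to 1836 FPKM in DMSO and 480 to 511 FPKM in LBH589. The groups overlapped for PMEL (185 to 364 and 176 to 225 FPKM) and S100B (0.774 to 1.86 and 1.71 to 2.82 FPKM). The other markers, MITF and SOX10 among them, were lower in every LBH589 library than in any DMSO library. Of markers of other cells, the sums over 2 of 6 fibroblast and endothelial genes were at most 2.52 FPKM under DMSO and 5.55 FPKM under LBH589, and those over 3 of 4 epithelial genes at most 8.57 and 11.8 FPKM. The part of these shifts in the results below was not tested beyond scaling the libraries to equal sums, with and without the mitochondrially encoded genes. In bulk RNA, fewer cells of a kind and less RNA per cell cannot be told apart.

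Of the 44 genes, 22 fell in LBH589, 1 (UTP3) rose and 21 did not pass. The falls included the nucleolar proteins NCL, NPM1 and NOLC1, the polymerase I factor UBTF, the box H/ACA proteins DKC1, GAR1 and NHP2, 4 small subunit factors and 9 of 13 large subunit factors, while none of the 5 polymerase I subunits passed the test. Over all tested genes 48.8% were called, of which the larger part rose: 21.6% fell and 27.2% rose. The share of falls in the list, 50%, was thus above the background and the share of rises, 2.27%, below it. The list was chosen with earlier results of these data known, so this comparison is a description and no independent test. Among the 6866 genes with means of 5 FPKM or more, 25.1% fell and 26.5% rose. The median log2 fold change was -0.54 over the 44 genes, from -2.14 for UBTF to 0.64 for NOC2L, against 0.08 over all tested genes. The 3 values of LBH589 lay below all 3 of DMSO in 27 genes and above them in 2, where 26.5 and 33% of all genes did so. On the scale of log2(FPKM + 1), falls of 2-fold or more were made by 7 genes, a class that held 10.7% of all genes. With library sums made equal, 17 genes fell and 2 rose (RRN3 and UTP3), and the median was -0.37 against 0.23 over all genes. With sums made equal without the mitochondrially encoded genes, 22 fell and 1 rose, and the median was -0.50. Of the 29 genes with several listed transcripts 17 fell (58.6%) and 0 rose, with a median of -0.69. Of the 15 genes with 1 listed transcript 5 fell (33.3%) and 1 rose, with a median of -0.24. Whether the number of transcripts plays a part was not tested. No gene entered the test through 1 group alone, since the lowest group mean of any was 2.66 FPKM. The sums can still hold transcripts whose mean reached 0.5 FPKM in 1 group alone. Examples are ENST00000583725.5_1 of UTP18 (means 4.49 in DMSO and 0.063 FPKM in LBH589) and ENST00000514354.5_1 of NHP2 (0 and 0.716 FPKM).

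**Figure D1:**
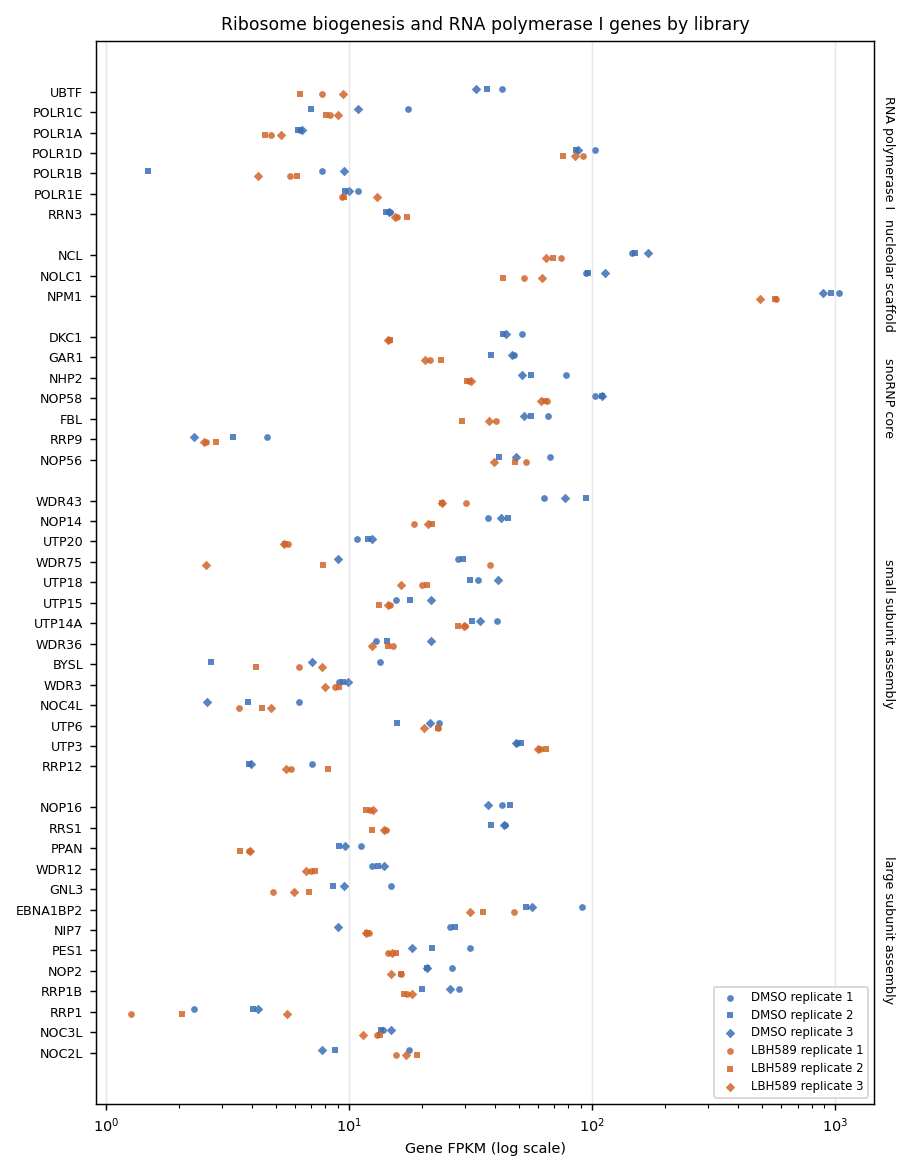
FPKM of each of the 44 genes (log axis) in the 3 DMSO (blue) and 3 LBH589 (orange) libraries, with marker shapes for the replicates and genes grouped by role. NPM1 lies highest, near 963 FPKM in DMSO, and the LBH589 points lie to the left of all DMSO points for 27 genes.

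Summed over the 44 genes, FPKM was 2611, 2366 and 2328 in DMSO replicates 1 to 3 and 1532, 1443 and 1367 in the LBH589 replicates. The groups thus did not overlap, and the LBH589 mean was 0.594 times the DMSO mean (a description, with no test). As a share of the FPKM of genes not encoded in mitochondria, the set held 1.02 to 1.03% in DMSO and 0.603 to 0.667% in LBH589. NPM1 alone made up 38.3 to 40.6% of the sum in DMSO and 35.8 to 39.3% in LBH589. Without NPM1 the ratio of the sums was 0.615. Among the roles the ratio of summed FPKM was 0.77 for polymerase I, 0.713 for small subunit assembly, 0.581 for the snoRNP proteins, 0.567 for large subunit assembly and 0.545 for NCL, NPM1 and NOLC1 together. The polymerase I sum went from a mean of 179 to 138 FPKM. Much of that difference lay in UBTF, a factor and no subunit, which went from 37.7 to 7.84 FPKM.

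Of the 7 polymerase I genes, 1 fell (14.3%, against 21.6% of all tested genes) and 0 rose. The largest change of the whole list was in this group. UBTF, the factor that binds ribosomal DNA and holds its chromatin open for polymerase I, was at 42.8, 36.9 and 33.3 FPKM under DMSO and at 7.75, 6.32 and 9.43 FPKM under LBH589. The LBH589 values were all far below the DMSO values, and UBTF fell by 2.14 on the log2 scale (SE 0.17, limma adjusted p = 1.94e-04), with a DMSO mean 4.81 times the LBH589 mean. The largest subunit, POLR1A, which carries the active site together with POLR1B, was at 6.32, 6.17 and 6.40 FPKM under DMSO and at 4.79, 4.53 and 5.26 FPKM under LBH589. These values did not overlap, but POLR1A missed the threshold (log2 fold change -0.32, 95% interval -0.59 to -0.05, adjusted p = 0.0567). It passed after quantile normalization (adjusted p = 0.0431), with equal library medians (0.046) and without limma's trend (0.0426). In the other 14 of the 17 alternatives POLR1A did not pass. With equal library sums its log2 fold change was -0.17 (adjusted p = 0.297), and under the replicate block the adjusted p was 0.133. RRN3, the initiation factor that recruits the polymerase and is switched by growth signals, was at 14.7, 14.2 and 14.6 FPKM under DMSO and at 15.7, 17.4 and 15.5 FPKM under LBH589. The RRN3 values were higher in LBH589 without overlap, and the difference did not pass (log2 fold change 0.15, adjusted p = 0.25), except with equal library sums (0.31, adjusted p = 0.0401). Pseudogene copies of RRN3 make its values uncertain.

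The other polymerase I subunits had groups that overlapped. POLR1D, shared with RNA polymerase III, was the most abundant of them at 103, 86.1 and 87.6 FPKM under DMSO (92.1 ± 9.08, SD, n = 3) and at 92, 75.8 and 85.1 FPKM under LBH589 (84.3 ± 8.15), and its log2 fold change had a 95% interval of -0.42 to 0.16. POLR1C, the other subunit shared with polymerase III, was at 17.5, 7.0 and 10.9 FPKM under DMSO and at 8.40, 8.03 and 8.98 FPKM under LBH589, so DMSO replicate 2 lay below all LBH589 libraries. POLR1E was at 10.9, 9.59 and 9.99 FPKM under DMSO and at 9.41, 9.55 and 13 FPKM under LBH589. POLR1B was at 7.76, 1.49 and 9.54 FPKM under DMSO and at 5.74, 6.14 and 4.21 FPKM under LBH589. DMSO replicate 2 thus lay below every other library, and the interval of the POLR1B change, -1.30 to 1.38, was too wide to show a difference of ordinary size.

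All 3 abundant nucleolar proteins fell. NCL (nucleolin), which binds nascent ribosomal RNA, was at 147, 149.8 and 169 FPKM under DMSO and at 74.6, 69.0 and 64.8 FPKM under LBH589 (log2 fold change -1.15, SE 0.10, limma adjusted p = 3.3e-04). NPM1 (nucleophosmin), which gives the outer nucleolus its structure and chaperones ribosomal proteins and histones, was at 1037, 961 and 892 FPKM under DMSO and at 570.2, 567 and 489 FPKM under LBH589 (log2 fold change -0.83, SE 0.12, adjusted p = 0.00184). NOLC1, a chaperone that brings snoRNPs into the nucleolus, was at 94.1, 96.3 and 113 FPKM under DMSO and at 52.5, 43.1 and 62.5 FPKM under LBH589 (log2 fold change -0.94, SE 0.16, adjusted p = 0.00391). In all of these genes the highest LBH589 library lay below the lowest DMSO library. NPM1 has many processed pseudogenes, so how its fragments were assigned is uncertain.

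Of the 7 snoRNP proteins 5 fell (71.4%, against 21.6% of all tested genes), including all 3 of the box H/ACA proteins in the list. DKC1 (dyskerin), the pseudouridine synthase, was at 51.4, 42.9 and 44.4 FPKM under DMSO and at 14.6, 14.8 and 14.5 FPKM under LBH589 (log2 fold change -1.59, SE 0.10, limma adjusted p = 9.02e-05). Its partner GAR1 was at 47.9, 38.5 and 46.9 FPKM under DMSO and at 21.5, 23.9 and 20.6 FPKM under LBH589 (log2 fold change -0.98, adjusted p = 0.00105). Both had LBH589 values packed closely below the DMSO range, with a DMSO mean 3.16 times the LBH589 mean for DKC1 and 2.02 times for GAR1. NHP2, which binds the guide RNA beside them, fell from 62.0 ± 14.2 to 31.2 ± 0.535 FPKM (adjusted p = 0.00433). NOP10, the remaining protein of the particle and no part of the list, fell from 99.6 ± 16.9 to 66.3 ± 3.73 FPKM (adjusted p = 0.0187), a call that ended with equal library sums.

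Of the box C/D proteins, NOP58 and FBL passed the test and NOP56 and RRP9 did not. NOP58 was at 103, 109.7 and 109.5 FPKM under DMSO and at 65.5, 64.3 and 61.8 FPKM under LBH589 and fell (log2 fold change -0.74, SE 0.08, limma adjusted p = 7.3e-04). FBL (fibrillarin), the methyltransferase of these particles, fell from 58.0 ± 6.92 to 35.7 ± 5.76 FPKM (adjusted p = 0.0119). NOP56, which pairs with NOP58 in the particle, was at 66.9, 41.5 and 48.6 FPKM under DMSO and at 53.4, 48.2 and 39.4 FPKM under LBH589. Its groups overlapped, and the interval of its log2 fold change, -0.63 to 0.37, includes changes close to that of NOP58. Whether NOP56 and NOP58 differ in response was not tested. RRP9, the protein particular to the U3 snoRNP, was low at 4.59, 3.32 and 2.31 FPKM under DMSO and at 2.58, 2.85 and 2.53 FPKM under LBH589 and missed the threshold (adjusted p = 0.392).

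**Figure D2:**
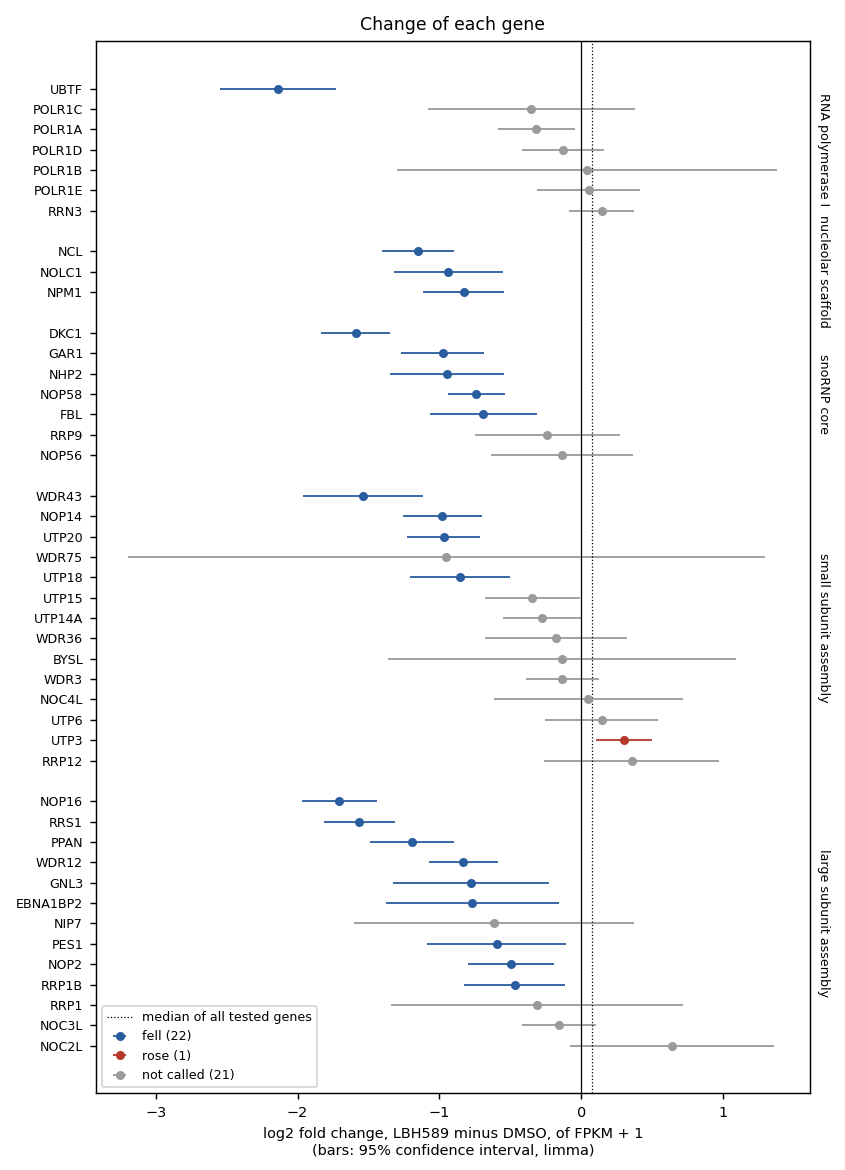
log2 fold change of FPKM + 1, LBH589 minus DMSO, for the 44 genes with the 95% confidence interval of the limma fit, grouped by role, in blue for the 22 that fell, red for the 1 that rose and grey for the 21 that did not pass. The wide grey bars of WDR75, POLR1B and BYSL belong to genes whose libraries differed widely within a group, and the dotted line marks the median of all tested genes, 0.08.

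Among the 14 small subunit genes there were 4 falls (28.6%), 1 rise (7.14%) and 9 genes that did not pass. Over all tested genes 21.6% fell and 27.2% rose, so the share of falls was near the background. WDR43, a protein of the subcomplex that binds the growing ribosomal RNA first, was at 63.5, 94.5 and 77.6 FPKM under DMSO and at 30.2, 24.2 and 24.1 FPKM under LBH589 (log2 fold change -1.54, SE 0.17, limma adjusted p = 8.01e-04). UTP20, a large scaffold protein of the small subunit processome, was at 10.8, 12 and 12.4 FPKM under DMSO and at 5.61, 5.48 and 5.39 FPKM under LBH589 (log2 fold change -0.97, SE 0.11, adjusted p = 6.63e-04). NOP14, a core protein of the same particle, was at 37.4, 45.1 and 42.1 FPKM under DMSO and at 18.6, 21.9 and 21.2 FPKM under LBH589 (log2 fold change -0.98, SE 0.11, adjusted p = 8.54e-04). The groups of these genes lay apart, by a wide margin in WDR43. UTP18, a WD-repeat protein of the processome, fell from 35.5 ± 4.96 to 19.2 ± 2.38 FPKM (adjusted p = 0.00388).

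UTP3, a processome protein singled out here because it was the 1 gene that rose, was at 49.4, 51.3 and 48.9 FPKM under DMSO and at 60.8, 64.5 and 59.8 FPKM under LBH589. The shift was small but without overlap (log2 fold change 0.30, SE 0.08, limma adjusted p = 0.0232), and the call ended with equal library medians (adjusted p = 0.0537), without DMSO replicate 3 (0.0524) and without LBH589 replicate 1, 2 or 3 (0.0731, 0.087 and 0.0522). Within the processome subcomplexes, some partners passed and others did not, and no difference between partners was tested. Beside UTP18, which fell, its partners WDR3 (9.5 ± 0.431 and 8.59 ± 0.577 FPKM), WDR36 (16.4 ± 4.78 and 14 ± 1.43 FPKM) and UTP6 (20.3 ± 4.01 and 22.3 ± 1.62 FPKM) did not pass. Beside WDR43, its partner UTP15 was at 18.4 ± 3.02 and 14.2 ± 0.726 FPKM (adjusted p = 0.0832) and WDR75 did not pass. WDR75 was at 28.1, 29.4 and 9.06 FPKM under DMSO and at 38.1, 7.81 and 2.58 FPKM under LBH589, so each group held both high and low libraries. BYSL, NOC4L, RRP12 and UTP14A, factors of small subunit maturation, had log2 fold changes of -0.14, 0.05, 0.36 and -0.28, none of which passed.

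Of the 13 large subunit factors measured, 9 fell (69.2%, against 21.6% of all tested genes) and 0 rose. NOP16 was at 42.7, 46.2 and 37.4 FPKM under DMSO and at 12.3, 11.7 and 12.5 FPKM under LBH589, a DMSO mean 3.46 times the LBH589 mean (log2 fold change -1.70, SE 0.11, limma adjusted p = 9.09e-05). RRS1, which helps load the RNA and proteins of the central knob of the large subunit, was at 44.0, 38.6 and 43.6 FPKM under DMSO and at 14.3, 12.5 and 13.9 FPKM under LBH589 (log2 fold change -1.57, SE 0.10, adjusted p = 1e-04). PPAN (peter pan homolog) was at 11.2, 9.11 and 9.61 FPKM under DMSO and at 3.89, 3.57 and 3.92 FPKM under LBH589 (log2 fold change -1.19, SE 0.12, adjusted p = 5.16e-04). All LBH589 libraries of these genes lay below 0.5 times the lowest DMSO library. A readthrough transcript joins PPAN to its neighbour P2RY11, so PPAN values are uncertain.

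Both measured partners of the PES1, BOP1 and WDR12 complex, which is needed to process the large subunit RNA, fell. WDR12 went from 13.2 ± 0.737 to 6.97 ± 0.286 FPKM (limma adjusted p = 0.00101). PES1 went from 23.8 ± 6.89 to 15 ± 0.530 FPKM and was at the threshold (adjusted p = 0.0499), a call that ended in 10 of the 17 alternatives. GNL3 (nucleostemin), a nucleolar GTPase known from stem cells and tumours, fell from 11.0 ± 3.38 to 5.88 ± 0.966 FPKM (adjusted p = 0.0304). EBNA1BP2 (66.9 ± 20.6 to 38.4 ± 8.5 FPKM, adjusted p = 0.0448), NOP2, an RNA methyltransferase (22.8 ± 3.22 to 15.8 ± 0.845 FPKM, 0.0186), and RRP1B (24.8 ± 4.39 to 17.4 ± 0.650 FPKM, 0.0391) also fell. With equal library sums the calls of PES1, GNL3, EBNA1BP2, NOP2 and RRP1B ended (adjusted p = 0.148, 0.0773, 0.106, 0.0971 and 0.185). Over the 17 alternatives the call of RRP1B ended in 9, that of EBNA1BP2 in 7 and those of GNL3 and NOP2 in 6 each, libraries left out among them.

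The remaining large subunit factors did not pass. NIP7 was at 25.9, 27.4 and 8.99 FPKM under DMSO and at 12.1, 11.8 and 11.7 FPKM under LBH589. DMSO replicate 3 lay below all LBH589 libraries. Without it the log2 fold change of NIP7 was -1.11 and passed (limma adjusted p = 0.00109), as in no other of the 17 alternatives. Leaving out the library that makes the groups overlap favours a call. The most abundant NIP7 transcript, ENST00000254940.9_1, had a log2 fold change of -0.007 when tested singly (adjusted p = 0.994). NOC2L, which partners NOC3L in transport of the large subunit precursor and is also known as an inhibitor of histone acetyltransferases, was at 17.6, 8.76 and 7.75 FPKM under DMSO and at 15.6, 19.0 and 17.2 FPKM under LBH589. Here DMSO replicate 1 lay within the LBH589 range, and without it the log2 fold change was 0.98 (adjusted p = 0.00277). NOC2L, too, passed in no other alternative. NOC3L was at 14.1 ± 0.726 and 12.6 ± 1.05 FPKM and RRP1 at 3.53 ± 1.06 and 2.96 ± 2.29 FPKM.

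Transcripts of these genes were also tested singly, in a fit over the 27042 transcripts whose mean reached 0.5 FPKM, an analysis added after the data were seen. Of 119 tested transcripts of the 44 genes, 20 fell and 0 rose, where 7.33% of all tested transcripts fell and 8.62% rose. A transcript was listed only if a group mean reached 0.5 FPKM. Fallen transcripts of NOP16 (ENST00000509257.1_1, means 1.30 in DMSO and 0.252 FPKM in LBH589) and NOLC1 (ENST00000461421.5_2, 1.74 and 0.358 FPKM) reached it in DMSO alone. The count of falls is thus not free of that filter and is a description only. The falls came from 16 genes. In NCL the main transcript (ENST00000322723.8_1) fell from 114 ± 6.97 to 54.7 ± 1.91 FPKM. In NPM1 the 2 most abundant transcripts fell, ENST00000393820.2_1 from 436 ± 26.1 to 289 ± 34.5 FPKM and ENST00000351986.10_1 from 415 ± 88.3 to 189 ± 30.3 FPKM. POLR1C, whose sum did not pass, had 1 transcript that did: ENST00000304004.7_1 was at 5.97, 6.68 and 7.45 FPKM under DMSO and at 3.03, 3.37 and 2.65 FPKM under LBH589 (limma adjusted p = 0.021). Its other main transcript, ENST00000372389.7_1, was at 10.8, 0.135 and 3.45 FPKM under DMSO and at 3.97, 4.66 and 4.87 FPKM under LBH589.

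Several genes had steady sums over transcripts that were not steady. The UBTF transcript ENST00000529383.5_1 fell, from 26.4, 8.24 and 23.7 FPKM in DMSO to 0.644, 1.08 and 2.86 FPKM in LBH589, while ENST00000526094.5_1 was at 9.68, 23.7 and 5.06 FPKM in DMSO. The high and low DMSO libraries of these UBTF transcripts were opposite, whereas the gene sum stayed between 33.3 and 42.8 FPKM. In NOP14, ENST00000398071.4_1 was at 7.56 and 40.4 FPKM in DMSO replicates 1 and 2 and listed at 0 in replicate 3, and it had the highest mean, so replacing the sum by that transcript turned the NOP14 change to 0.70 (adjusted p = 0.734). NOLC1 had a transcript, ENST00000370007.5_2, at 37.9 FPKM in LBH589 replicate 1 and at most 0.591 FPKM in every other library. A value for 1 transcript of such a gene describes how fragments were divided as well as how much RNA there was.

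**Figure D3:**
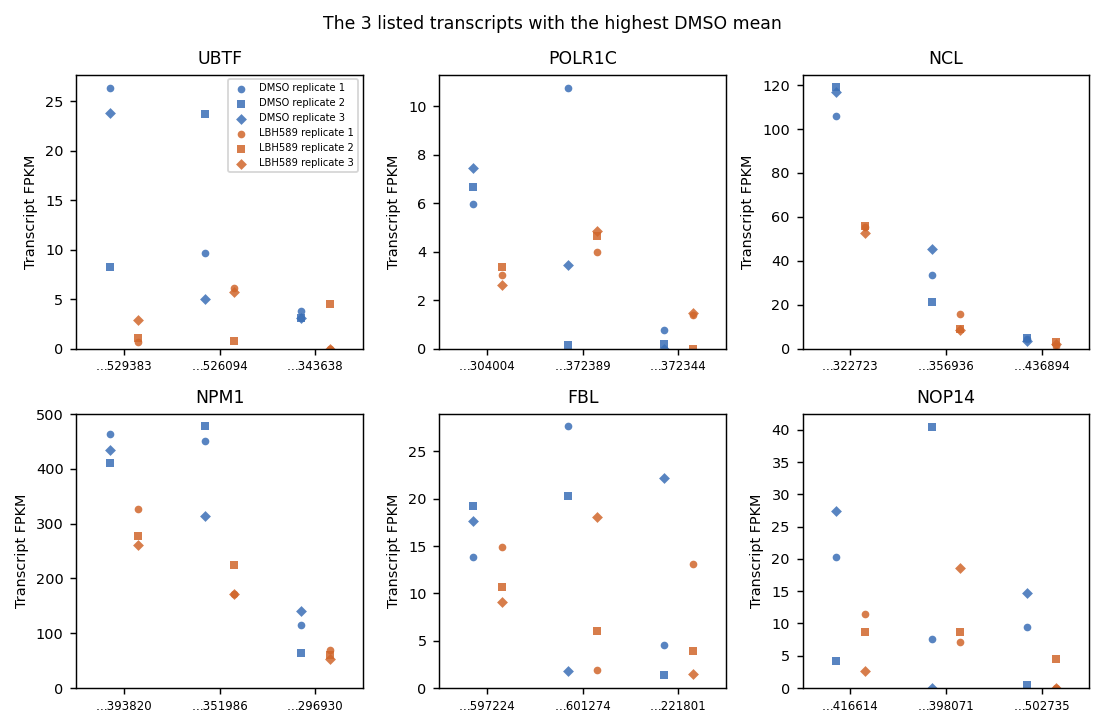
FPKM by library of the 3 listed transcripts with the highest DMSO mean in UBTF, POLR1C, NCL, NPM1, FBL and NOP14 (last digits of the identifiers on the horizontal axis). The main NCL transcript separates the groups, at 114 against 54.7 FPKM, while those of FBL and NOP14 are scattered within each group.

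The rest of the pathway was covered by 139 further genes listed by role. Of 138 tested, 45 fell (32.6%) and 17 rose (12.3%), with a median log2 fold change of -0.22. Over all tested genes 21.6% fell and 27.2% rose. With equal library sums 29 fell and 22 rose, with sums made equal without mitochondrially encoded genes 37 fell, and without LBH589 replicate 2 the rises numbered 11. Whether these genes differ from the 44 was not tested. In small subunit assembly 15 of 39 fell (38.5%) and 4 rose (10.3%), or 8 and 5 with equal sums. TSR1, a factor of late small subunit maturation, fell from 26.6 ± 1.5 to 11.7 ± 1.54 FPKM (limma adjusted p = 6.82e-04) and UTP4, a partner of WDR43, from 24.4 ± 2.46 to 14.4 ± 1.10 FPKM (0.00318). NOP9 rose from 5.05 ± 1.05 to 11.4 ± 0.609 FPKM (0.00229), as did MPHOSPH10, a U3 snoRNP protein, from 24.9 ± 0.776 to 36.4 ± 1.65 FPKM (0.00318). In large subunit assembly 14 of 39 fell (35.9%) and 6 rose (15.4%). MRTO4, a stalk assembly factor, fell from 22.4 ± 5.74 to 6.40 ± 0.243 FPKM (7.41e-04) and BRIX1 from 25 ± 2.41 to 12.4 ± 0.598 FPKM (7.65e-04). RPF1 rose from 31.6 ± 1.54 to 56.4 ± 4.39 FPKM (9.47e-04) and EFL1, a GTPase of the last cytoplasmic step, from 7.13 ± 0.358 to 14.5 ± 1.47 FPKM (0.00111).

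Among other polymerase I and promoter factor genes 2 of 8 fell (25%) and 0 rose, or 1 and 2 with equal sums. Over all tested genes 21.6% fell and 27.2% rose, so this share of falls was near the background. TTF1, the factor that ends polymerase I transcription, fell from 24.5 ± 3.89 to 12.4 ± 1.56 FPKM (limma adjusted p = 0.00345) and TAF1D, a subunit of the promoter selectivity complex, from 18.3 ± 1.88 to 12.7 ± 1.14 FPKM (0.0164). Of 11 other snoRNP assembly genes 2 fell and 2 rose (18.2% each), or 0 and 2 with equal sums. Beside NOP10, TCOF1 (treacle), which links polymerase I transcription to processing, fell from 20.6 ± 5.01 to 11.6 ± 2.79 FPKM (0.0335), while NUFIP1 rose from 9.89 ± 1.10 to 13.6 ± 0.712 FPKM (0.0242) and RUVBL2 from 20.2 ± 8.25 to 38.6 ± 7.67 FPKM (0.0414). Of 14 exosome genes, which trim ribosomal RNA ends, 6 fell (42.9%) and 2 rose (14.3%). EXOSC10 fell from 22.4 ± 2.59 to 12.9 ± 0.795 FPKM (0.00272) and MPHOSPH6 from 40.5 ± 0.448 to 27.8 ± 1.04 FPKM (0.00254), whereas the nuclease DIS3 rose from 13.3 ± 0.0335 to 23.0 ± 2.83 FPKM (0.00252) and C1D from 6.17 ± 0.877 to 10.1 ± 1.37 FPKM (0.0132). Of the 5 subunits shared between the polymerases 0 fell and 0 rose (0 and 1 with equal sums).

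**Figure D4:**
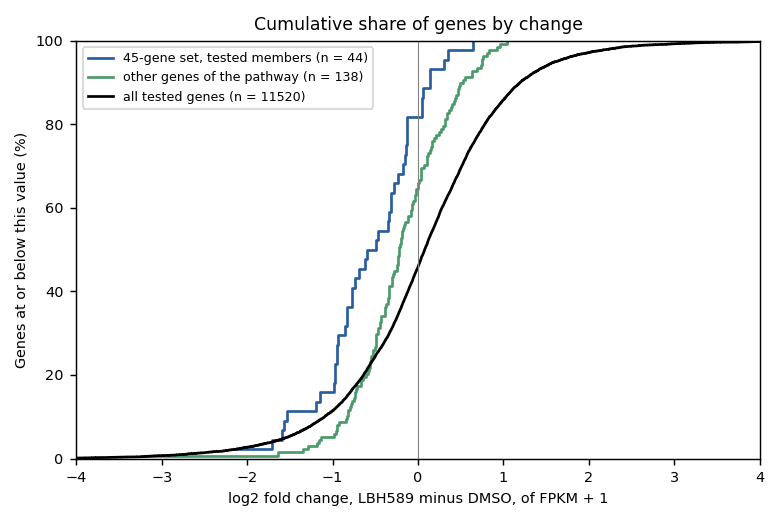
Cumulative share of genes (vertical axis, %) at or below each log2 fold change of FPKM + 1 for the 44 genes, 138 other tested genes of the pathway and all 11520 tested genes. The curve of the 44 genes lies to the left, with medians of -0.54, -0.22 and 0.08.

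The promoters of these genes were read for the E-box CACGTG, a word that MYC binds together with MAX, because many ribosome assembly genes are known MYC targets. RefSeq promoter windows (GRCh38.p14, 250 bases before to 50 after the annotated start, a later build than that of the expression files) were found for 38 of the 45 genes. The word reads the same on both strands and no other motif was searched. It was present in 14 of 38 genes (36.8%), against 12.9% of 9210 tested genes and 8.77% of all 27305 genes with a window. In the 250 bases before the start alone it was in 4 of 38 (10.5%), against 11.5% of tested genes, so most copies in this list lie at or just after the start. In the 25 bases from the start onward, 18.4% of the 38 genes had the word, against 1.11% of tested genes. This was the 25-base bin with the highest share in the list, and it rests on 7 genes. Of the 18 genes with a window that fell, 10 had it, and of the 20 that did not fall, 4 had it (no test was made). In the 250 bases before the start alone these counts were 3 and 1. The same split was not made over all tested genes, so the counts have no background beside them.

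Of the 14 genes with the word, the stretches around it are shown for 6 that fell and for RRP9 and NOC3L, which did not pass. The E-box is in capitals, and each stretch is written in the direction of its gene.
WDR43 (chr2:28894658-28894687, plus strand): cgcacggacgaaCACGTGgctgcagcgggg
UTP20 (chr12:101280083-101280112, plus strand): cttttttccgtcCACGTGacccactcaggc
NOP14 (chr4:2963374-2963403, minus strand): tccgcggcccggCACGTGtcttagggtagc
UTP18 (chr17:51260538-51260567, plus strand): gcagcgaggttcCACGTGagcgcctgcgtt
FBL (chr19:39846356-39846385, minus strand): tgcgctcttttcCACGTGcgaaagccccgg
GNL3 (chr3:52686026-52686055, plus strand): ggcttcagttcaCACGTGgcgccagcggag
RRP9 (chr3:51941892-51941921, minus strand): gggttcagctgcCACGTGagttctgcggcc
NOC3L (chr10:94362903-94362932, minus strand): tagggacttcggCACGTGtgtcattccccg

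The first base of the word lies 3 bases after the annotated start in WDR43, 15 in NOP14, 4 in UTP18, 6 in FBL, 6 in GNL3 and 19 in NOC3L, and before it at -10 in UTP20 and -5 in RRP9. Among the genes not shown it lies at 13 in PES1, 28 in BYSL, 31 in GAR1 and 35 in NOP2. Far from the start it lies at -241 in UTP14A and at -237 in EBNA1BP2, which has a further copy at 42. UTP18 has a further copy at -89. A match describes the letters of this window and does not show that a factor binds there, or which factor. MYC itself was at 184, 3.47 and 143 FPKM under DMSO and at 1.86, 2.84 and 14.8 FPKM under LBH589 (log2 fold change -3.14, limma adjusted p = 0.141). The groups overlapped for MYC, since DMSO replicate 2 lay within the LBH589 range. The part of MYC, or of any other factor, in the values above was not tested.

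**Figure D5:**
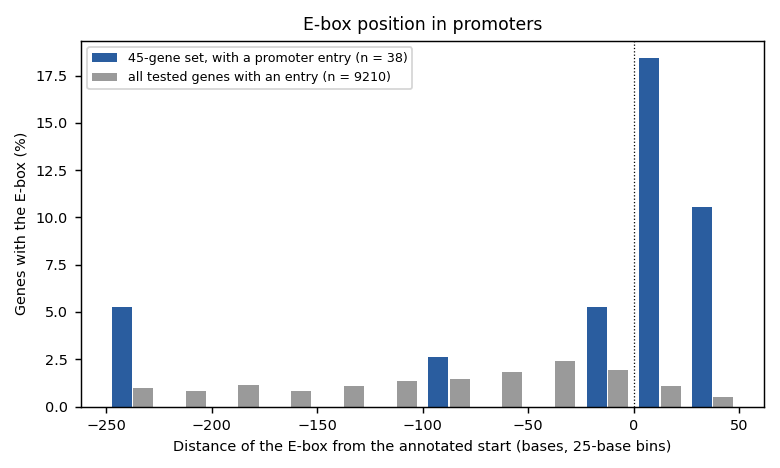
Share of genes (%) with the E-box in each 25-base bin of the promoter window by distance from the annotated start, for the 38 listed genes with a window (blue) and 9210 tested genes (grey). The blue bars reach 18.4% in the bin that begins at the start, where the grey bar is at 1.11%; each blue bar rests on at most 7 genes.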

How the data were processed

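RNA of 3 DMSO and 3 LBH589 samples was measured. The authors deposited 1 FPKM value per transcript and library (30624 transcripts), per the file headers. The submitters' processing notes list Bowtie 0.12.2 and hg19 and give neither a role. How FPKM were estimated, and on which annotation, is not given in the sources used here. Every transcript reached a group mean of 0.5 FPKM in DMSO, LBH589 or both, so transcripts low in both groups were not analysed here.

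Transcripts were named through GENCODE release 29 (30504, 99.6%), and FPKM was summed per gene. The 11520 genes whose mean reached 0.5 FPKM were tested on log2(FPKM + 1), a scale that understates changes of low genes, by limma 3.58.1 under R 4.3.3 (statmod 1.5.0). Treatment was the sole term, the variance trend and robust moderation were on, with Benjamini-Hochberg adjustment over all genes tested. The script was tested on simulated data. No pair of libraries shared more than 1 equal transcript value above 0. Member and pathway lists were chosen with earlier results of these data known. All listed members are named. Values in every sample are given for the 3 of each role with the smallest adjusted p, for members that did not pass in roles of at most 7 and for a few singled out after their values were seen. Other lists give the 2 smallest adjusted p in each direction. Alternatives were another pseudocount, other filters, scalings, threshold and moderation, the most abundant transcript, the replicate block and leaving out each library. Deviations of same-numbered samples correlated at -0.10, 0.02 and -0.04. That shows no shared signal by replicate number, but it cannot exclude that samples were paired.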

Additional observations from a re-analysis of the deposited data

How the results depend on the processing

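Across the 17 alternatives, 13 of the 22 falls kept their call in every one, 8 lost it in at least 1, and NOP14 turned with the most abundant transcript (log2 fold change 0.70). With the most abundant transcript the calls of EBNA1BP2, FBL, GNL3, NOLC1, NOP2, PPAN and RRP1B ended, and the median of the listed genes was -0.43. With equal library sums it was -0.37, the log2 ratio of their summed FPKM was -0.57 in place of -0.75, 2 rose, and 29 other pathway genes fell. The single rise was lost with equal medians, at adjusted p below 0.01 and under the replicate block (0 rises each). At adjusted p below 0.01, 16 listed genes fell, and 22 other pathway genes fell and 8 rose. A mean of at least 5 FPKM left 1844 rises over all genes, because fewer genes were tested. Leaving out 1 library each gave 17 to 21 falls and 0 to 2 rises among the listed genes, medians of -0.64 to -0.42, log2 ratios of the sums of -0.79 to -0.70, and 11 to 20 rises and 31 to 40 falls among other pathway genes. The replicate block gave 19 falls and 0 rises among the listed genes; it ended the calls of GNL3, PES1, RRP1B and UTP3 and no other among them, and left 9 falls in place of 15 among the other small subunit genes. Without the 50 bases after the start, the E-box share was 10.5%. Unknown depth limits what can be said of the low genes RRP9, RRP1 and NOC4L.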

Other observations

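RNA polymerase III makes the smallest ribosomal RNA and the transfer RNAs. Of 22 genes of this polymerase and its factors, 6 fell (27.3%) and 3 rose (13.6%), where 21.6% of all tested genes fell and 27.2% rose. With equal library sums 3 fell and 3 rose. GTF3C6, a subunit of the factor that recognises transfer RNA genes, was at 55.7, 49.7 and 46.1 FPKM under DMSO and at 5.59, 3.41 and 5.52 FPKM under LBH589. Its groups lay far apart, with a DMSO mean 10.4 times the LBH589 mean (log2 fold change -3.16, SE 0.19, limma adjusted p = 7.76e-05). GTF3C1, the largest subunit of the same factor, rose from 11.7 ± 0.836 to 17.6 ± 1.52 FPKM (adjusted p = 0.00763), and POLR3A, the largest subunit of the polymerase, from 5.27 ± 0.476 to 9.65 ± 0.395 FPKM (0.0021).

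The paralogous subunits POLR3G and POLR3GL, which take the same place in the enzyme, had opposite changes. POLR3G was at 37.3, 46.0 and 59.4 FPKM under DMSO and at 19.9, 26.5 and 15.9 FPKM under LBH589 and fell (log2 fold change -1.16, limma adjusted p = 0.00851). POLR3GL, named after its values were seen, was at 27.9, 28.6 and 18.5 FPKM under DMSO and at 42.1, 45.8 and 45.1 FPKM under LBH589 and rose (log2 fold change 0.83, adjusted p = 0.0101). POLR3G was thus the higher of the pair in each DMSO library and POLR3GL in each LBH589 library.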
